A study of Capra hircus with 90 samples.

Results

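LRP3 and LRP8 are the members of the low-density lipoprotein (LDL) receptor family that could be followed by name in transcript counts from the brainstem of goats breathing room air or 6% CO2. Both were selected on measured values: their symbols became available because the authors had listed the genes as lower in the ventral respiratory column after 24 h of CO2, by log2 change and false discovery rate. They are 2 of 238 symbols linked to rows of a table of 25144 genes, and the other 16 of 18 family genes looked for, among them LRP1, could not be linked and are not analysed here. The row of LRP3 is ENSCHIG00000012481 and that of LRP8 is ENSCHIG00000023113.

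LDL receptor family proteins span the cell membrane once, bind lipoproteins and other extracellular proteins through cysteine-rich repeats, and carry many of their ligands into the cell. LRP8, also called apolipoprotein E receptor 2, is known above all from the brain, where it is a receptor of the secreted protein reelin. Reelin binding leads to phosphorylation of the adaptor DAB1 and from there to kinase and small-GTPase signalling, which guides neuron placement in development and modulates synapses in the adult. LRP8 also takes up selenoprotein P, a carrier of selenium. LRP3 belongs to a less studied branch of the family whose members carry CUB domains beside the ligand-binding repeats.

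The animals were adult outbred female goats, at least 2 years old, of breeds such as Alpine, Saanen and Toggenburg, with no genetic alteration given. Of 5 groups with 6 goats each, one breathed room air for 24 h and another for 7 d, while the remaining 3 breathed 6% CO2 for 3 h, for 24 h or for 7 d. Small punches of frozen brainstem were taken at 3 sites rostral to the obex, the opening of the central canal into the fourth ventricle: at 0 to 2 mm for the nucleus of the solitary tract (NTS), at 2 to 4 mm for the ventral respiratory column (VRC), and at 8 to 10 mm for the retrotrapezoid nucleus (RTN). The limit of 0 mm is labelled for NTS room air only, and NTS libraries in CO2 carry just the limit of 2 mm. The NTS receives chemoreceptor and lung afferents, the VRC holds neurons of the breathing rhythm, and the RTN contains neurons that respond to CO2. The reference for 3 h and 24 h of CO2 was the 24 h room-air group, and that for 7 d of CO2 was 7 d of room air, as the study's design states. The 3 groups of up to 24 h were extracted and sequenced in a first batch and both 7 d groups in a second, so batch and length of housing cannot be told apart between them. A punch holds a mixture of cells, and in such bulk tissue fewer cells of a type and less RNA per cell cannot be told apart.

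Each of the 15 groups of site and exposure held 6 libraries, with group means of 18.9 to 28.5 M counts (M, mega). The shallowest library, VRC 24 h CO2 replicate 4, had 5.46 M counts, and NTS 3 h CO2 replicate 3 had 9.64 M. LRP3 received 164 to 3358 counts per library with a median of 955.5, and LRP8 received 83 to 1383 with a median of 680. Both genes passed the filter on low counts in every fit. Counting error alone was 7.81% of the LRP3 count and 10.98% of the LRP8 count in the library with the fewest. The spread between libraries of a group was larger: the coefficient of variation within a group had a median of 17.1% for LRP3 and 23.7% for LRP8. Each of these libraries is from another goat, so goat, punch and library preparation cannot be told apart in that spread. Levels are counts per M (CPM) after TMM scaling, which evens out differences in library composition. They are not per gene length, so LRP3 and LRP8 levels are not compared with each other. No gene that defines the NTS, VRC or RTN could be linked, and the site labels were not checked here.

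In the VRC, both receptors were lower after 24 h of CO2 than in 24 h of room air. LRP3 in the 6 room-air libraries was 50.5, 54.01, 78.5, 61.4, 57.9 and 53.2 CPM, and after 24 h of CO2 it was 29.3, 34.4, 36.7, 29.9, 29.2 and 40.3 CPM. The groups did not overlap: the highest CO2 library lay below the lowest room-air library. In room air LRP8 was 43.6, 39.2, 38.2, 43.5, 28.6 and 32.5 CPM, while goats given 24 h of CO2 had 17.6, 18.1, 21.1, 15.1, 17.5 and 19.7 CPM. Here too the groups did not overlap, and the CO2 libraries lay close together. Both genes were chosen by this difference, and the share of all genes without overlap was not counted. The separation is therefore no separate result. LRP8 after 24 h of CO2 varied by 11.2% between libraries, the smallest coefficient of variation of its 15 groups.

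**Figure D1:**
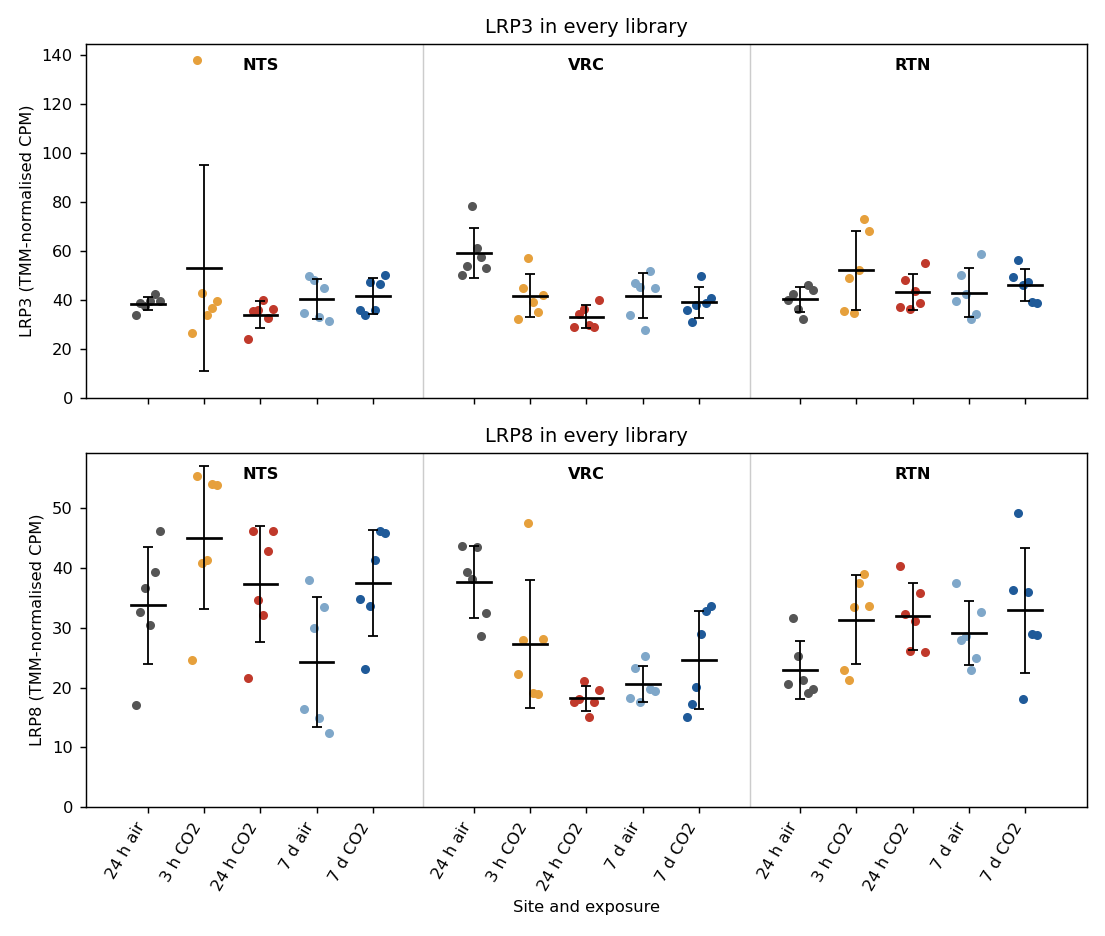
TMM-normalised CPM of LRP3 (upper panel) and LRP8 (lower panel) in every library, by site and exposure; each point is 1 library, the bar is the group mean and the whiskers are 1 SD (n = 6). In the VRC all 6 libraries of 24 h CO2 lie below all 6 of 24 h room air for both genes, the contrast that chose them. In the NTS 1 library of 3 h CO2 reaches 138.2 CPM for LRP3.

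The fitted log2 difference in the VRC at 24 h was -0.81 for LRP3 (SE 0.13) and -1.02 for LRP8 (SE 0.18), with the means going from 59.2 ± 10.2 to 33.3 ± 4.6 CPM and from 37.6 ± 6.0 to 18.2 ± 2.0 CPM (SD, n = 6 each). This contrast put both genes among those with a symbol, so these values describe the choice and carry no test. In the authors' deposited table for this contrast LRP3 has a log2 change of -0.82 with a false discovery rate of 0.0161 and LRP8 a log2 change of -1.03 with 0.00501. LRP8 is number 17 and LRP3 number 52 by p among the 115 entries of the authors' deposited table, 95 of them lower, and no entry has an absolute log2 change under 0.50. Neither gene appears in any other of the deposited tables. In the refit, 0.817% of 15424 genes passed an adjusted p of 0.05 in this contrast and 0.726% passed it as lower, from which nothing is read about LRP3 and LRP8. Leaving out each library in turn gave -0.88 to -0.71 for LRP3 and -1.08 to -0.97 for LRP8. Without the shallow replicate 4 of 24 h CO2, the LRP8 difference was -0.998.

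After 3 h of CO2, VRC levels lay between those of room air and 24 h of CO2. LRP3 was 32.5 to 57.5 CPM with a median of 40.7, and LRP8 was 19.0 to 47.4 CPM with a median of 25.1. Of the 6 libraries, 6 lay below the room-air mean for LRP3 and 5 for LRP8, but the ranges overlapped those of room air. VRC 3 h CO2 replicate 3 held the highest value of both genes, 57.5 CPM for LRP3 and 47.4 CPM for LRP8. The log2 difference from room air was -0.48 for LRP3 (SE 0.13) and -0.46 for LRP8 (SE 0.17). Without replicate 3 these became -0.59 and -0.69. From 3 h to 24 h of CO2 the log2 difference was -0.32 for LRP3 (SE 0.13) and -0.57 for LRP8 (SE 0.18), and without VRC 3 h CO2 replicate 3 they were -0.21 and -0.33. These contrasts share libraries with the choice and are given without a test. In the refit 0.013% of genes passed an adjusted p of 0.05 at 3 h.

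Levels of oligodendrocyte transcription factors moved alongside both receptors in the VRC. OLIG1 and OLIG2, which specify oligodendrocytes, were the 2 of 7 oligodendrocyte markers that could be linked. Their summed level was 96.5 to 147.4 CPM in VRC 24 h room air, 17.2 to 135.5 after 3 h and 21.5 to 45.4 after 24 h of CO2. As with LRP3 and LRP8, room air and 24 h of CO2 did not overlap, and no library was at 0 for the sum. Both OLIG genes carry a symbol from the same choice as LRP3 and LRP8, and their part in the lower receptor levels was not tested. The summed markers of microglia and myeloid cells (3 of 5 linked) were 54.6 to 83.3 CPM in room air and 57.6 to 85.1 after 24 h of CO2, and those of endothelium (3 of 5 linked) were 21.8 to 46.8 and 30.9 to 76.7. Neuron markers (3 of 8 linked: PRPH, GRP and NPFF) summed to 4.92 to 20.8 and 3.16 to 32.2 CPM. That sum is mostly PRPH, with means of 8.15 CPM in room air and 15.4 CPM after 24 h of CO2. Blood genes (2 of 3 linked) summed to 6.96 to 17.4 and 10.5 to 15.5 CPM. The ranges of these 4 sums overlapped between room air and 24 h of CO2. After 3 h of CO2 the endothelial sum was 52.2 to 81.9 CPM, above every room-air library. The myeloid, neuron and blood sums at 3 h were 52.2 to 72.5, 8.79 to 19.3 and 8.24 to 15.9 CPM, each overlapping room air. The part of these sums in the receptor levels was not tested. The myeloid sum is mostly AIF1, and within it NCF4, part of the oxidase that neutrophils and macrophages use to make superoxide, was 1.65 to 4.44 CPM in room air and 3.47 to 14.9 CPM after 24 h of CO2. TTR, the transthyretin gene and the 1 marker of choroid plexus, was 0.485 to 2.59 CPM in room air (median 1.99) and 1.39 to 162.8 CPM after 24 h of CO2 (median 11.7). NCF4 and TTR are higher entries of the authors' deposited table for this contrast, each with overlapping ranges here, and their part in the receptor levels was not tested. None of the 4 astrocyte markers and 2 oligodendrocyte precursor markers looked for could be linked, so precursors and oligodendrocytes were not told apart. Every linked marker carries a symbol only because the authors listed it for some comparison of CO2 with room air.

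After 7 d, in other goats and in the second batch, neither receptor differed in the VRC between CO2 and room air beyond the spread between libraries. LRP3 was 27.8 to 52.2 CPM (median 45.2) in room air and 31.3 to 50.0 (median 38.6) after 7 d of CO2, a log2 difference of -0.10 (SE 0.15, 95% interval -0.41 to 0.22; edgeR quasi-likelihood test, adjusted p = 0.908). LRP8 was 17.5 to 25.2 CPM (median 19.6) in room air and 15.1 to 33.6 (median 24.5) after CO2, a log2 difference of 0.26 (SE 0.20, 95% interval -0.16 to 0.68; edgeR adjusted p = 0.802). The interval of LRP3 lay above the -0.81 measured at 24 h and that of LRP8 above the -1.02. Those 24 h values chose the genes, which favours large differences, and the times differ in goats and batch. The change between the times was therefore not tested, and nothing is read from this. With edgeR 0 genes (0%) passed 0.05 here, while 996 had an unadjusted p under 0.05 and DESeq2 called 2. These 7 d libraries took no part in the choice of either gene.

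VRC room air itself differed between the batches. LRP8 averaged 37.6 ± 6.0 CPM in the 24 h room-air goats and 20.5 ± 3.0 CPM in the 7 d room-air goats (SD, n = 6 each), and the ranges did not overlap. The 7 d room-air libraries reached 25.2 CPM, and the lowest of 24 h room air was 28.6 CPM. LRP3 averaged 59.2 ± 10.2 and 41.9 ± 9.1 CPM, with 1 of 6 libraries of 7 d room air inside the range of 24 h room air. Batch, housing time and goats differ together between these room-air groups, so their parts cannot be told apart. The VRC 24 h room-air libraries also took part in choosing LRP3, LRP8 and both OLIG genes as lower in CO2. Such a choice favours genes with high values in that group, so these differences rest on selected values and carry no test. The share of all genes without overlap between these room-air groups was not counted. The sum of OLIG1 and OLIG2 went the same way, with 96.5 to 147.4 CPM in VRC 24 h room air and 13.6 to 47.0 CPM in VRC 7 d room air. These ranges did not overlap, and the part of OLIG genes was not tested.

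In the RTN, LRP8 was higher on average after 3 h and 24 h of CO2, without passing the test across all genes. It was 19.0 to 31.7 CPM in 24 h room air (median 20.9), 21.3 to 39.0 after 3 h (median 33.5) and 25.9 to 40.2 after 24 h (median 31.7). All 6 libraries of 24 h CO2 lay above the room-air mean of 22.9 CPM, and 1 room-air library, replicate 2, lay inside their range. The log2 difference at 24 h was 0.48 (SE 0.16, 95% interval 0.14 to 0.81; edgeR unadjusted p = 0.00723, adjusted p = 0.628). At 3 h it was 0.44 (SE 0.16; edgeR unadjusted p = 0.0107, adjusted p = 0.579), with 5 of 6 libraries above the room-air mean. An unadjusted p under 0.05 was not rare in these contrasts: 6.47% of 15479 genes had one at 24 h and 6.92% at 3 h. By edgeR 0 genes (0%) passed an adjusted 0.05 at 24 h, where DESeq2 called 9, and 2 genes (0.0129%) did at 3 h.

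LRP3 in the RTN was 32.4 to 46.4 CPM in 24 h room air (median 41.3), 35.0 to 73.1 after 3 h (median 50.8) and 36.5 to 55.2 after 24 h (median 41.3). The log2 difference was 0.37 at 3 h (SE 0.16; edgeR unadjusted p = 0.0329, adjusted p = 0.685) and 0.10 at 24 h (SE 0.16, 95% interval -0.24 to 0.44; adjusted p = 0.952). The 3 h libraries were spread widely, with 4 of 6 above the room-air mean. From 3 h to 24 h of CO2 LRP3 differed by -0.27 (adjusted p = 0.620) and LRP8 by 0.03 (adjusted p = 0.965), where edgeR passed 0 genes (0%), 1390 had an unadjusted p under 0.05 and DESeq2 called 25. After 7 d of CO2 the RTN differences were 0.10 for LRP3 (95% interval -0.20 to 0.41) and 0.17 for LRP8 (95% interval -0.24 to 0.59), each with an edgeR adjusted p of 0.999. Leaving out 1 library, these ran from 0.028 to 0.21 for LRP3 and from 0.02 (without RTN 7 d CO2 replicate 2) to 0.30 for LRP8. There edgeR again passed 0 genes (0%), with 499 at an unadjusted p under 0.05 and 2 called by DESeq2.

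OLIG1 and OLIG2 were also higher on average in the RTN in CO2: their sum was 26.2 to 69.4 CPM in 24 h room air, 33.0 to 123.9 after 3 h and 60.8 to 100.2 after 24 h. Neither passed an adjusted p of 0.05, and their part in the LRP8 level was not tested.

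In the NTS, no CO2 exposure moved either receptor past the threshold. LRP8 was 17.2 to 46.2 CPM in 24 h room air (median 34.5), 24.6 to 55.4 after 3 h (median 47.5) and 21.5 to 46.1 after 24 h (median 38.7), so all 3 ranges overlapped. Its log2 difference was 0.42 at 3 h (SE 0.23, 95% interval -0.05 to 0.89; edgeR adjusted p = 0.760) and 0.15 at 24 h (SE 0.23; adjusted p = 0.841). The 24 h value ran from 0.014 without NTS 24 h room air replicate 1 to 0.26 without replicate 6, and was 0.30 without the 5 NTS libraries that stood apart. After 7 d LRP8 was 12.5 to 38.0 CPM in room air (median 23.2) and 23.1 to 46.1 after CO2 (median 38.0). That log2 difference, 0.63 (SE 0.27, 95% interval 0.06 to 1.196; edgeR unadjusted p = 0.0333, adjusted p = 0.611), was the highest fitted for LRP8 among the 9 contrasts of CO2 with room air. Of the 6 libraries in CO2, 5 lay above the room-air mean, yet the ranges overlapped, and 8.02% of genes had an unadjusted p under 0.05. The room-air libraries fell into a wide range, with the highest coefficient of variation of LRP8 in any group, 44.9%.

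LRP3 in the NTS held its tightest group and its widest. It was 34.2 to 42.6 CPM in 24 h room air (median 39.2), with a coefficient of variation of 7.21%, the lowest of the 15 groups. After 3 h it was 26.8 to 43.1 CPM in 5 libraries and 138.2 CPM in replicate 2 (coefficient of variation 79.1%, the highest), and after 24 h it was 24.1 to 40.1 CPM. The log2 difference at 3 h was 0.46 with all libraries (SE 0.30; edgeR adjusted p = 0.810) and -0.10 without replicate 2, so 1 library set its sign. At 24 h the difference was -0.17 (SE 0.30; adjusted p = 0.866), and after 7 d it was 0.04 (SE 0.15, 95% interval -0.27 to 0.35; adjusted p = 0.944). From 3 h to 24 h of CO2 LRP3 differed by -0.63 (SE 0.30; adjusted p = 0.437), which became -0.07 without NTS 3 h CO2 replicate 2, and LRP8 by -0.27 (adjusted p = 0.629). By edgeR the genes past 0.05 in the NTS were 0 at 3 h (0%), 0 at 24 h (0%), 0 from 3 h to 24 h (0%) and 1 at 7 d (0.00653%). At an unadjusted p under 0.05 there were 1053, 1591, 1776 and 1228, and DESeq2 called 12, 191, 15 and 75.

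**Figure D2:**
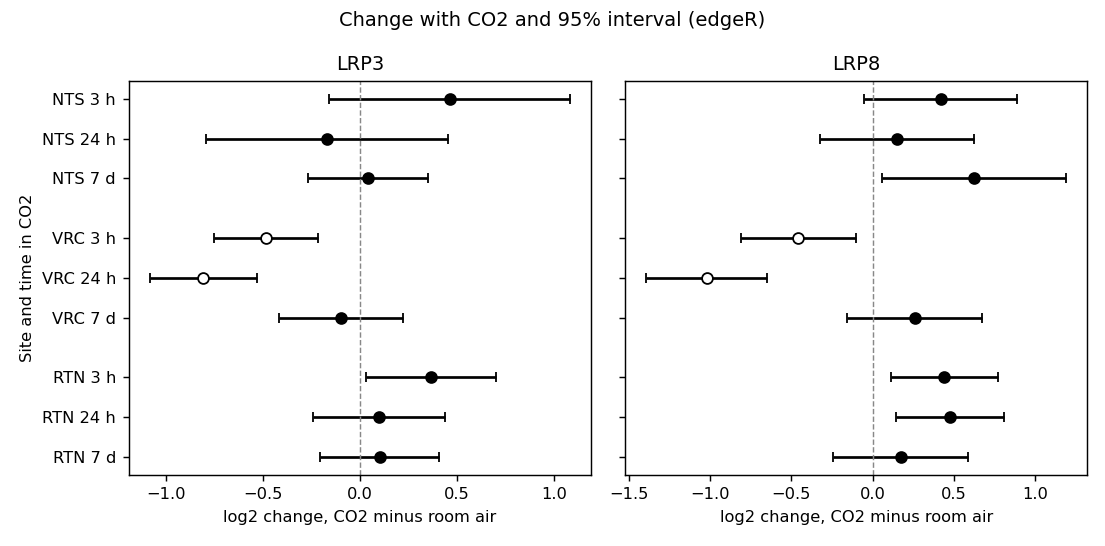
Fitted log2 change of LRP3 (left) and LRP8 (right), CO2 minus room air, at each site and time, with 95% intervals from edgeR; filled circles are contrasts whose libraries took no part in choosing the genes, open circles (VRC at 3 h and 24 h) are description only. Both genes lie left of 0 in the VRC at 3 h and 24 h, and the LRP8 values of the RTN and NTS lie between 0.15 and 0.63.

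The size of the CO2 difference was set side by side between sites, with punches of the same goat treated as independent. At 24 h the VRC difference minus the RTN difference was -0.92 for LRP3 and -1.51 for LRP8 on the log2 scale, and the VRC difference minus the NTS difference was -0.64 and -1.17. For LRP8 all 6 VRC libraries of 24 h CO2 lay below their room-air mean and all 6 RTN libraries lay above theirs. These contain the contrast that chose the genes and were not tested, and 0.661% of all genes passed 0.05 in VRC minus RTN and 2.44% in VRC minus NTS. Between the RTN and the NTS, which took no part in the choice, the 24 h differences differed by 0.28 for LRP3 (95% interval -0.35 to 0.91) and 0.34 for LRP8 (95% interval -0.23 to 0.91). The LRP8 value was 0.107 by voom with quality weights, and 0.21 to 0.46 when 1 library was left out. Neither passed an adjusted p of 0.05 with edgeR, nor did any gene (0%), with 592 at an unadjusted p under 0.05 and 1 called by DESeq2.

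At 7 d the sites could be compared in full. The VRC difference minus the NTS difference was -0.14 for LRP3 (adjusted p = 0.877) and -0.37 for LRP8 (95% interval -1.06 to 0.33; adjusted p = 0.788). The VRC difference minus the RTN difference was -0.20 for LRP3 and 0.08 for LRP8 (adjusted p = 0.999 each), and the RTN difference minus the NTS difference was 0.06 (adjusted p = 0.987) and -0.45 (95% interval -1.14 to 0.24; adjusted p = 0.910). By edgeR 0 genes (0%) passed in each of these 3 comparisons. At an unadjusted p under 0.05 there were 1255, 305 and 858 genes, and DESeq2 called 3, 0 and 3.

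The sites were next compared in room air alone, again with punches of the same goat treated as independent. In the 24 h room-air goats LRP8 was 22.9 ± 4.8 CPM in the RTN and 33.7 ± 9.8 CPM in the NTS (SD, n = 6 each), a log2 difference of -0.56 (SE 0.20; edgeR unadjusted p = 0.00777, adjusted p = 0.109), where 4.63% of genes passed the adjusted threshold and 16.2% had an unadjusted p under 0.05. The lowest NTS library, replicate 1 with 17.2 CPM, lay below every RTN library, and without it the difference was -0.69 with an adjusted p of 0.0342. Over the other alternatives the adjusted p ran up to 0.233. LRP3 differed by 0.05 between the RTN and the NTS (95% interval -0.39 to 0.50; adjusted p = 0.946). The VRC of the same exposure is given without a test: LRP3 was higher there by 0.61 than in the NTS and by 0.55 than in the RTN on the log2 scale, and LRP8 by 0.16 and 0.72. All 6 VRC libraries of LRP3 lay above all 12 of the other 2 sites. These VRC libraries took part in the choice, and the share of all genes so separated was not counted. Of all genes 10.4% passed 0.05 between the VRC and the NTS and 5.46% between the VRC and the RTN.

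In the 7 d room-air goats the VRC did not stand above the other sites in either receptor. LRP3 averaged 41.9 ± 9.1 CPM in the VRC, 40.5 ± 8.1 in the NTS and 43.1 ± 10.1 in the RTN (SD, n = 6 each), with log2 differences of 0.06 for VRC minus NTS (95% interval -0.25 to 0.37; edgeR adjusted p = 0.864), -0.04 for VRC minus RTN (95% interval -0.35 to 0.27; adjusted p = 0.917) and 0.09 for RTN minus NTS (adjusted p = 0.756). LRP8 averaged 20.5 ± 3.0 CPM in the VRC, 24.2 ± 10.9 in the NTS and 29.1 ± 5.3 in the RTN. VRC minus RTN was -0.50 on the log2 scale (SE 0.25; edgeR unadjusted p = 0.0477, adjusted p = 0.227), opposite in sign to the 24 h room-air goats. When only those 12 libraries were fitted, the adjusted p was 0.0396, and over the other alternatives it ran up to 0.394. VRC minus NTS was -0.23 (adjusted p = 0.598) and RTN minus NTS 0.27 (adjusted p = 0.521), and without NTS 7 d room air replicate 2 these were -0.059 and 0.44. The shares of all genes past 0.05 in these 3 comparisons were 12.9% for VRC minus NTS, 6.77% for VRC minus RTN (21.5% at an unadjusted p) and 12.2% for RTN minus NTS.

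Ordered by group mean over the 15 groups, LRP3 ran from 59.2 CPM in VRC 24 h room air to 33.3 CPM in VRC 24 h CO2. The difference between these VRC groups chose LRP3 and LRP8, so the places of these groups in either order are no separate result. The same holds for comparisons with VRC 24 h room air. Behind VRC 24 h room air came NTS 3 h CO2 at 53.2 CPM and RTN 3 h CO2 at 52.3 CPM, with 34.2 to 46.3 CPM in the next 11 groups. The place of NTS 3 h CO2 rests on replicate 2: without it the mean was 36.2 ± 6.2 CPM (SD, n = 5), number 13 of 15. LRP8 ran from 45.0 CPM in NTS 3 h CO2 and 37.6 CPM in VRC 24 h room air down to 20.5 CPM in VRC 7 d room air and 18.2 CPM in VRC 24 h CO2. No neighbours in either order were apart: the libraries of each overlapped those of the next. Against VRC 24 h room air, whose lowest LRP3 library was 50.5 CPM, 7 of the other 14 groups had at least 1 LRP3 library as high, and 3 of 6 libraries of RTN 3 h CO2 were. For LRP8 only VRC 24 h CO2 and VRC 7 d room air stayed wholly below the VRC 24 h room-air range.

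Within groups, LRP3 and LRP8 varied together in part: over the deviations of the 90 libraries from their group means of log2 CPM, Pearson's r was 0.46 and Spearman's rho 0.48. Over the 15 group means r was also 0.46 (rho 0.48), but that value holds the 2 VRC groups whose difference chose both genes, and over the other 13 means r was 0.14 (rho 0.22). Libraries share goats and batches, so these values are descriptions with no test. Without the 2 libraries farthest from the median of LRP3, NTS 3 h CO2 replicates 2 and 1, r within groups was 0.45. It was 0.55 in the NTS, 0.43 in the VRC and 0.30 in the RTN (30 libraries each), and 0.44 and 0.53 in the first and second batch. Of 14273 genes compared, 2.36% had a higher r with LRP3 than LRP8 had, and 3.03% had a higher r with LRP8 than LRP3 had. The likeness was not particular to this pair. For 82 lower entries of the authors' deposited VRC 24 h table, the median r was 0.58 with LRP3 and 0.67 with LRP8, both above 0.46.

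**Figure D3:**
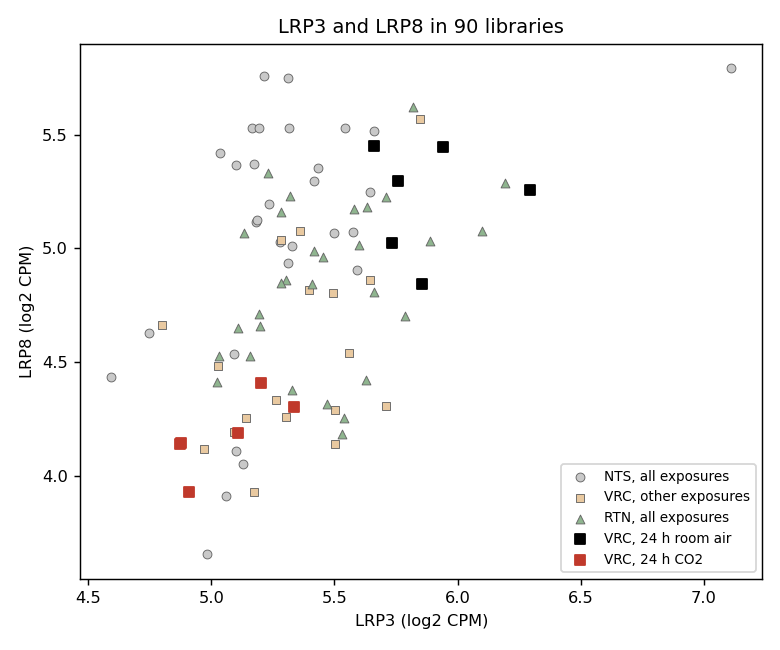
LRP8 against LRP3, both in log2 CPM, in the 90 libraries; the symbol shape gives the site and the colour marks VRC 24 h room air (black) and VRC 24 h CO2 (red). The black and red squares lie apart on both axes, and other libraries fill the space between and around them.

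The linked genes with the group means most like those of LRP3 were BTBD6, an adaptor of a cullin ubiquitin ligase (r = 0.93), SELENOO, a mitochondrial selenoprotein (0.92), the adaptor NCK2 (0.92), LEMD2 of the inner nuclear membrane (0.89) and the transcription factor MYCN (0.87), over 15 groups. For LRP8 they were AGAP3, a GTPase-activating protein of Arf (0.90), HS6ST1, a heparan sulfate sulfotransferase (0.85), the kinase AKT1 (0.85), the transcription factor SOX21 (0.84) and NT5DC2 (0.83). Within groups, over 90 libraries, LRP3 varied most closely with BTBD6 (0.83), AGAP3 (0.82) and EXOSC6 (0.76), and LRP8 with AGFG1 (0.84), RFNG, a glycosyltransferase of the Fringe family that acts on Notch (0.83), and EGLN1, a prolyl hydroxylase of hypoxia-inducible factors (0.82). Only 222 linked genes could be compared. All of those named stand in the authors' deposited VRC 24 h table, so their group profiles share the contrast that chose LRP3 and LRP8.

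**Figure D4:**
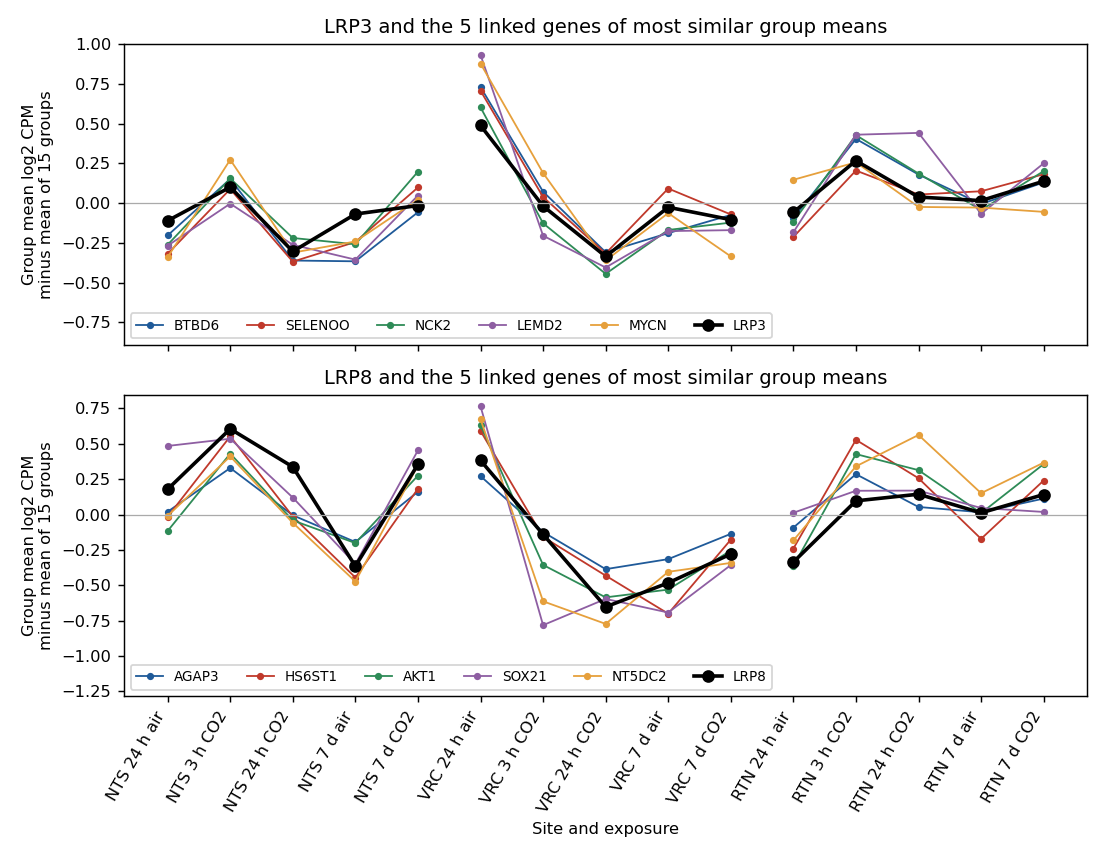
Group mean log2 CPM minus the mean of the 15 groups, for LRP3 (black, upper panel) and LRP8 (black, lower panel) with the 5 linked genes of most similar group means (coloured), over sites and exposures. The lines of all named genes stand high in VRC 24 h room air and low in VRC 24 h CO2.

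The within-group likeness reached beyond those few genes. Of the lower entries of the authors' deposited VRC 24 h table, 82 had a symbol and could be compared, and their median r with LRP3 within groups was 0.58, against 0.00 for all genes. With LRP8 the median was 0.67, against -0.02 for all genes. An r over 0.5 was reached by 72% of these 82 genes with LRP3 and by 75.6% with LRP8, against 1.66% and 2.46% of all genes. When both VRC groups of the contrast were left out, which leaves 78 libraries, the medians were 0.60 and 0.68. The 82 genes and both receptors were listed by the same contrast, also where its libraries are left out of the correlation. Their likeness is therefore no independent evidence. The correlations use deviations from group means, share libraries and goats, and are given as a description.

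Of 23 genes of reelin signalling, apolipoprotein E and receptor handling, 3 could be linked: NCK2, an adaptor that binds phosphorylated DAB1, AKT1, a kinase of the phosphoinositide pathway, and RAPGEF1, an exchange factor for Rap1. None of 10 genes of cholesterol supply could be linked. All 3 were lower in the VRC after 24 h of CO2, by log2 differences of -1.003 for NCK2, -1.20 for AKT1 and -0.56 for RAPGEF1, and all 3 stand in the authors' deposited table of that contrast, so they are no independent evidence. Their median was -1.003, against 0.00 over all genes, and beside it LRP3 had -0.81 and LRP8 -1.02. In the RTN after 3 h of CO2 the 3 genes had differences of 0.56, 0.87 and 0.19, with a median of 0.56, and LRP8 had 0.44. In the NTS after 3 h they had 0.49, 0.77 and 0.27, and after 7 d 0.38, 0.49 and -0.15, beside 0.63 for LRP8. In the VRC after 7 d they had 0.06, 0.36 and -0.03, beside 0.26 for LRP8. In the NTS and RTN at each time and in the VRC at 7 d, 0 of 3 passed an edgeR adjusted p of 0.05, and the lowest adjusted p was 0.348, for AKT1 in the RTN at 3 h. Of all genes 0 to 0.0129% passed in those 7 contrasts, so nothing is read from that count.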

How the data were processed

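RNA from 90 brainstem punches was sequenced as 100-bp read pairs after SMART-Seq v4 and Nextera XT library preparation, per the labels' protocols. Per the submitters' processing notes, edgeR 4.6, featureCounts 2.0.6, STAR 2.7.10b and fastp 0.24.0 were used. Build, annotation and strand setting: not given in the sources used here. Unnormalised counts were deposited by the authors, 1 column per library, with Ensembl gene identifiers as rows, and 0 columns went unused. For each comparison of CO2 with room air there is a deposited table of genes, 3 of them with headers only. Their log2 fold change and log2 mean abundance, the likelihood ratio (a score) and the p-value and FDR columns are named so per the file headers.

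The counts carry no symbols. An edgeR likelihood ratio fit over all 90 libraries (filterByExpr minimum count 5, 17730 genes) was compared with the 342 deposited entries by mean abundance, with a tolerance of 1e-06. Of these, 341 matched exactly 1 gene, 93 are given as identifiers, and 238 symbols were linked. The largest difference in log2 change was 0.0015. The deposited VRC 24 h table put LRP3 and LRP8 among the linked genes, so a contrast with VRC libraries of 24 h room air or 24 h CO2 is given without a test. Both members and all lists were chosen with earlier results of these data known.

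Tests used R 4.3.3 and edgeR 4.0.16: TMM factors, filterByExpr, glmQLFit (legacy=FALSE, robust=TRUE) and glmQLFTest, with Benjamini-Hochberg adjustment over all genes tested and a threshold of 0.05. Contrasts within a site used its libraries of 1 batch (18 or 12), and those between sites all libraries of a batch (54 or 36). Within a site the p-values measure the spread between libraries of different goats, which also holds differences of punch and library preparation. The fits between sites had no term for the goat and treated punches of the same goat as independent, so their p-values ignore that pairing. Values in CPM use TMM factors over 90 libraries, and correlations use log2 CPM with a prior count of 2. Named besides LRP3 and LRP8 are linked list members, at most 6 a list, and the 5 linked genes of at least 1 CPM with the highest correlation of group means and the 3 with the highest correlation within groups. On simulated counts of 15368 genes for the VRC 24 h comparison, the test recovered 91% of changes of 0.8 and 100% of changes of 1.5 on the log2 scale. The simulation gave every gene the same dispersion, held no outlying library and changed only well-counted genes. These shares are therefore not the power for LRP3 and LRP8.

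Alternatives were RLE factors, DESeq2 1.42.0, limma 3.58.1 voom with quality weights, a filter of 1 CPM in 6 libraries or none, only the groups compared, a likelihood ratio fit over all 90 libraries, the replicate number as a block, no libraries under 10 M counts (M, mega), the NTS without 5 libraries that stood apart, and leaving out each library in turn. The design takes 3 punches from each goat, but the labels do not say that a number marks a goat. The residuals of a library were compared with those of a group of the same exposure at another site. In 87 of 90 such comparisons the same number correlated best, and a library could enter more than once. In 12 of 15 pairs of groups every same-number correlation was over 0.1. Between exposures at a site, which are different goats, this held in 1 of 9. No sequence of either gene was used here.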

Additional observations from a re-analysis of the deposited data

Results flagged for a closer look

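In 30 combinations of gene and group, 2 had a library whose gap to its nearest neighbour was large against the range of the group, and chance gives about 1 in 20. LRP3 in NTS 3 h CO2 replicate 2 was 138.2 CPM, with 43.1 CPM in the next library and 3358 counts behind it. LRP8 in VRC 3 h CO2 replicate 3 was 47.4 CPM, with 28.1 CPM in the next library. The same library was also the highest of its group for LRP3, at 57.5 CPM. LRP8 also differed between sites in its 24 h CO2 difference: VRC minus RTN was -1.51 on the log2 scale, with 6 of 6 VRC libraries below and 6 of 6 RTN libraries above the room-air mean of their site. This last difference was not tested, because its libraries chose the gene.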

How the results depend on the processing

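Of 34 tested log2 differences of LRP3 and LRP8, 31 kept their sign and their side of 0.05 under the 7 to 10 other settings run for each, and 25 under leaving out each library in turn. Their size was less stable: 15 moved by over 1.5 times under some setting and 26 without some library, many of them close to 0. The 14 differences described without a test kept their sign, and the 30 group means moved by less than 1 SD under RLE factors and without TMM factors. By voom with quality weights LRP3 in 7 d room air, VRC minus RTN, was 0.053 in place of -0.04, and LRP8 in the RTN from 3 h to 24 h of CO2 was -0.11 in place of 0.03. With only the groups compared, LRP8 in 7 d room air, VRC minus RTN, was -0.51 and passed. The cause was not tested.

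Leaving out each library in turn, LRP3 in the NTS at 3 h ran from -0.10 to 0.60, and at 7 d from -0.021 to 0.11. In 7 d room air LRP3 ran from -0.0087 to 0.16 for RTN minus NTS, from -0.016 to 0.15 for VRC minus NTS and from -0.11 to 0.067 for VRC minus RTN. The LRP3 difference of 7 d effects, RTN minus NTS, ran from -0.0052 to 0.17. For LRP8 the RTN from 3 h to 24 h ran from -0.054 to 0.10, the difference of 7 d effects, VRC minus RTN, from -0.045 to 0.24, and RTN minus NTS in 24 h room air from -0.69 to -0.45.

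With the replicate block no call of LRP3 or LRP8 changed. That block joins libraries of the same number across exposures, which are different goats, so it does not account for punches shared by a goat. LRP8 in 7 d room air, VRC minus RTN, was -0.52 under the block (adjusted p = 0.197), while genes called in that contrast went from 1086 to 2050. Counts of genes called moved more than the members did. In the VRC at 24 h edgeR called 126, DESeq2 274, a fit of only the compared groups 263 and a fit without libraries under 10 M counts (M, mega) 52. In the NTS at 24 h edgeR called 0, DESeq2 191, voom 272, the fit over 90 libraries 250, the block 13, and the fit without 5 libraries that stood apart 148. In the VRC at 3 h edgeR called 2, DESeq2 121, voom 30, the fit over 90 libraries 15 and the block 95. With 83 LRP8 counts in the shallowest library, counting error limits that library most.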
